A study of Homo sapiens with 6 samples.

Results

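The genes described here are the protein-coding genes of the cytosolic ribosomal proteins, chosen by name: symbols that begin with RPL or RPS followed by a number, and RPLP0, RPLP1, RPLP2 and RPSA. The rule found 78 rows among the 31582 genes of the count table, and 77 of them passed the low-count filter among 16394 genes tested. Of these 77, 46 belong to the large subunit (the 3 stalk genes included) and 31 to the small subunit. The row that was not tested is a second RPL41 entry on chromosome 7, a gene model of 75 exon bases whose counts were 4, 1 and 3 in knockdown libraries 1 to 3, against 1, 5 and 5 in control libraries 1 to 3. Some genes that also encode ribosomal proteins, FAU and RACK1 among them, fall outside the naming rule and are counted with the related genes.

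Ribosomal proteins are built together with ribosomal RNA into the large and the small subunit of the cytosolic ribosome, which join on the mRNA to make protein. In vertebrates most of their mRNAs begin with a run of pyrimidines directly at the cap, the terminal oligopyrimidine (TOP) tract, through which growth signalling by the mTORC1 kinase complex sets how much of them is translated. Each protein is needed in about equal number, the mRNAs are among the most abundant in growing cells, and MYC is a known activator of their transcription.

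The cells were MDA-MB-231, an established hormone receptor-negative human breast cancer line. One group carried an shRNA against CALR, which encodes calreticulin, a chaperone that binds calcium in the endoplasmic reticulum (genotype label CALR Knockdown, 3 libraries), and the other carried a non-targeting control construct (3 libraries). Both groups grew in the same serum-containing medium and were harvested before confluence, and polyadenylated RNA was sequenced. The labels give no shRNA sequence and do not state if replicate libraries are separate cultures, so p-values measure only the spread between these libraries.

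Library totals ran from 37295097 to 42425310 counts in knockdown cells and from 34639090 to 40732131 counts in control cells. CALR stood at 493, 66.4 and 110.1 counts per 1000000 (CPM, on library sizes scaled by edgeR's TMM factors) in knockdown libraries 1 to 3, against 1213, 979 and 926 CPM in control libraries 1 to 3. The CALR transcript left was thus 47.5%, 6.39% and 10.6% of the control mean in the 3 knockdown libraries, all below every control, with a log2 fold change of -2.22 ± 0.64 (SE) and an edgeR adjusted p of 0.21. VIM, the mesenchymal filament gene expected in this line, was high in every library (2491 to 3177 CPM in knockdown and 1697 to 1839.6 CPM in control), and the leukocyte gene PTPRC had at most 11 counts in any library. Of the 6 luminal breast markers, ESR1 had 0.343 to 0.596 CPM in knockdown and 0.357 to 0.573 CPM in control, and PGR, FOXA1 and CDH1 had at most 2.2 CPM in any library. The other luminal markers were present, GATA3 at 9.18 to 11.1 CPM in knockdown and 6.27 to 8.13 CPM in control, and KRT18 at 173 to 199 CPM in knockdown and 154 to 223 CPM in control.

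The annotated first bases of some of the genes are shown because most of these mRNAs in vertebrates begin with a TOP tract. Each window holds 10 bases before the annotated start and 20 from it on, read 5′ to 3′ along the gene's strand from RefSeq on GRCh38.p14. Capitals mark the unbroken run of C and T from the annotated start. The genes are the stalk genes RPLP0 and RPLP1, the short-peptide gene RPL41, RPSA, RPS9, RPS6, the lowest-ranking gene RPL26, and RPS29, whose annotated start does not open with C.
RPLP0: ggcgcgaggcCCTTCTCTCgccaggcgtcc (chr12:120201092-120201121, minus strand)
RPLP1: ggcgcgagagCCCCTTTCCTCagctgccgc (chr15:69452808-69452837, plus strand)
RPL41: cttcgcctttCTCTCggccttagcgccatt (chr12:56116623-56116652, plus strand)
RPSA: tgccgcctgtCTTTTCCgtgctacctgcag (chr3:39406710-39406739, plus strand)
RPS9: gcttccgcgcCTCTTTCTCagtgaccgggt (chr19:54200848-54200877, plus strand)
RPS6: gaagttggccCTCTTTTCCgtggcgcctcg (chr9:19380217-19380246, minus strand)
RPL26: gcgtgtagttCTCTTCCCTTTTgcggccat (chr17:8383174-8383203, minus strand)
RPS29: agcgcgcagcTggcagcggtggttgtttct (chr14:49598691-49598720, minus strand)

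The search asked for a C exactly at the annotated start followed by at least 4 bases that are each C or T, on the gene's strand, and no other motif was searched. Of the 77 genes, 62 had rows in the promoter table (77 rows, since some genes have several annotated starts), and 46 rows (59.7%) held this start. The start was held by 1429 of all 35116 promoter rows (4.07%). By gene, 46 had at least 1 such start and 16 had none. A match describes these letters at an annotated position; where transcription began in these cells was not measured.

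No ribosomal protein gene was called between knockdown and control. In edgeR's quasi-likelihood test 0 of 77 had an adjusted p under 0.05 (0% of all genes tested), and 0 of 77 had an unadjusted p under 0.05, against 15.5% of all genes tested (8.17% higher and 7.36% lower in knockdown). limma-voom and DESeq2 also called 0 of 77. Over all genes limma-voom called 0, and DESeq2 called 530 of 16384 (3.23%). The smallest unadjusted p among the 77 was 0.09, for RPL26, with an adjusted p of 0.39. In RNA from a whole culture, less transcript per cell and fewer cells carrying it cannot be told apart.

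The fitted differences were small and mostly above 0. The log2 fold changes ran from -0.34 to 0.43 with a median of 0.17, beside a median of -0.00072 over all genes tested, and 68 were positive and 9 negative. Large and small subunit genes had the same median, 0.17 each. The 95% intervals reached 0.32 to 0.58 to either side of the estimate, all of them contained 0, and none extended past a log2 fold change of 1 in either direction, so doubled or halved levels lay outside every interval. The sign of the small differences depends on the scaling: with library size alone 46 of 77 were positive and the median was 0.02 (all genes -0.13), and on log2(FPKM + 1) 47 of 77 were positive with a median of 0.019 (all genes -0.084).

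**Figure D1:**
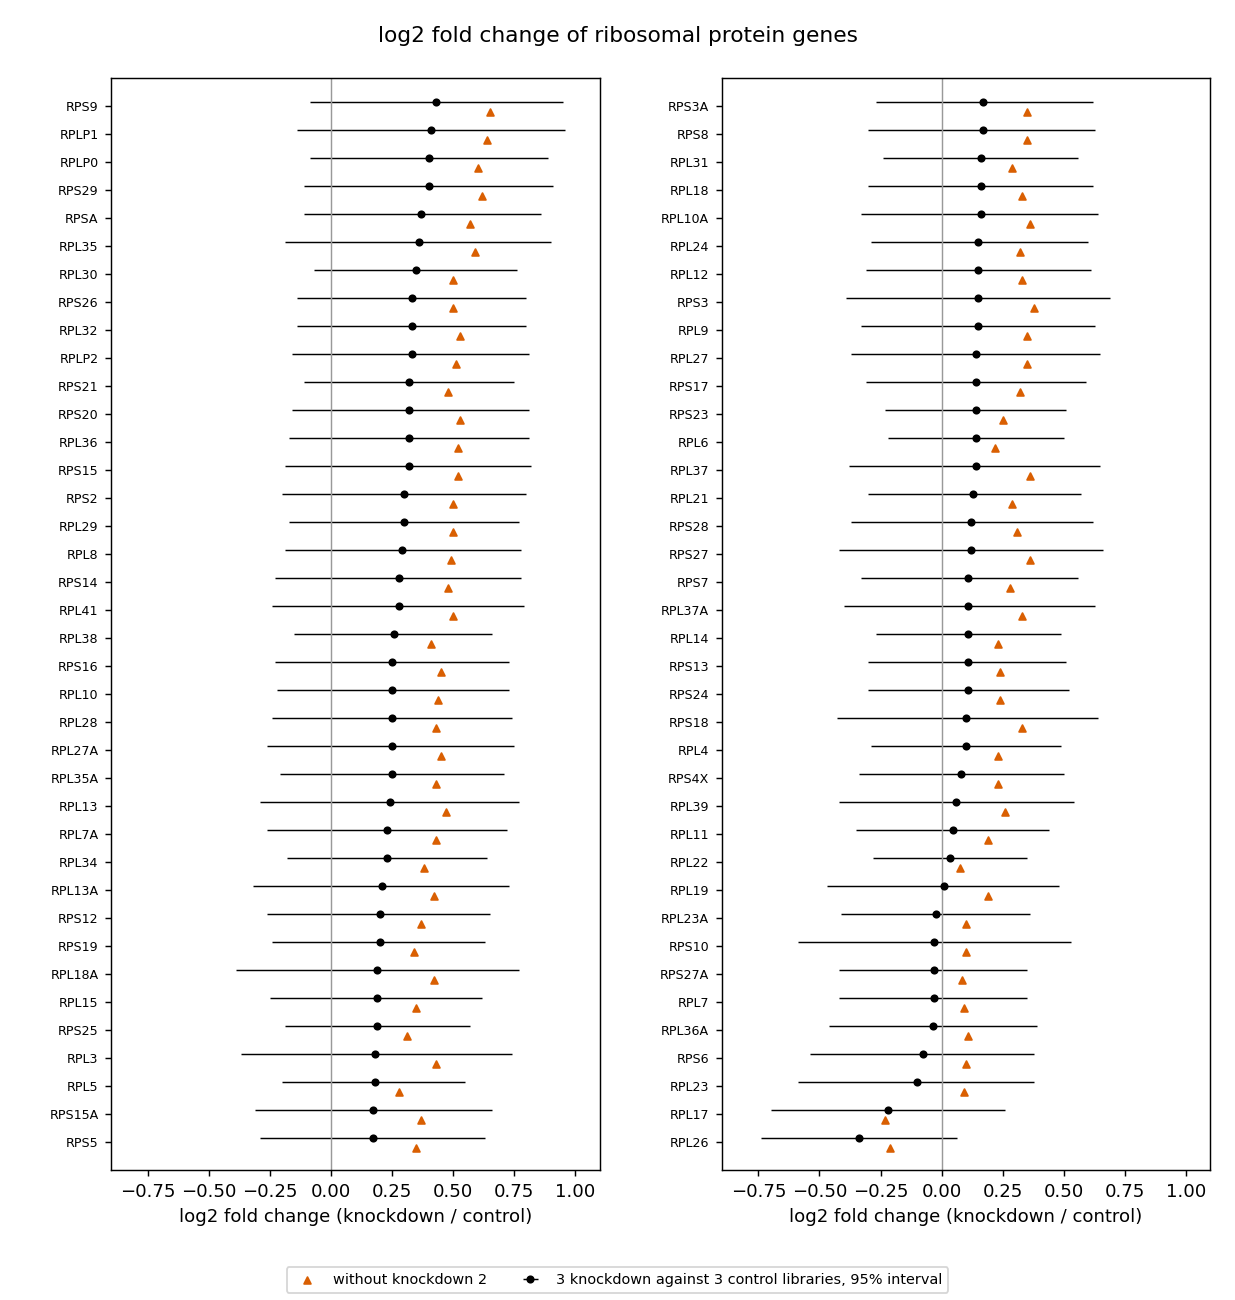
log2 fold change (knockdown over control) of the ribosomal protein genes, ordered from the most positive to the most negative; points are edgeR estimates from all 6 libraries with 95% intervals, triangles the estimates without knockdown library 2. A single gene is not shown. Every interval crosses 0, from RPS9 at 0.43 to RPL26 at -0.34, and the triangles lie to the right of the points for all genes but RPL17.

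The 3 knockdown libraries differed from each other in these genes. Relative to the mean of the 3 controls, the median ribosomal protein gene stood at 123% in knockdown library 1, 84.7% in knockdown library 2 and 135% in knockdown library 3 (log2 differences of 0.30, -0.24 and 0.43). The control libraries lay at 0.077, 0.033 and -0.11 on the same log2 scale, and the median over all genes tested lay within 0.022 of 0 in every library. In knockdown library 1, 69 of 77 genes were above all 3 controls (37.2% of all genes tested) and 2 were below all of them (40% of all genes). In knockdown library 3, 71 were above (39.3%) and 1 was below (39.8%). In knockdown library 2, 0 of 77 were above all controls (33% of all genes) and 69 of 77 were below all of them (34.9% of all genes). The 2 genes below the controls in library 1 were RPL17 and RPL26, and the 1 in library 3 was RPL26. The 8 genes within the controls in library 2 were RPS9, RPLP0, RPLP1, RPLP2, RPSA, RPL30, RPS26 and RPS21.

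**Figure D2:**
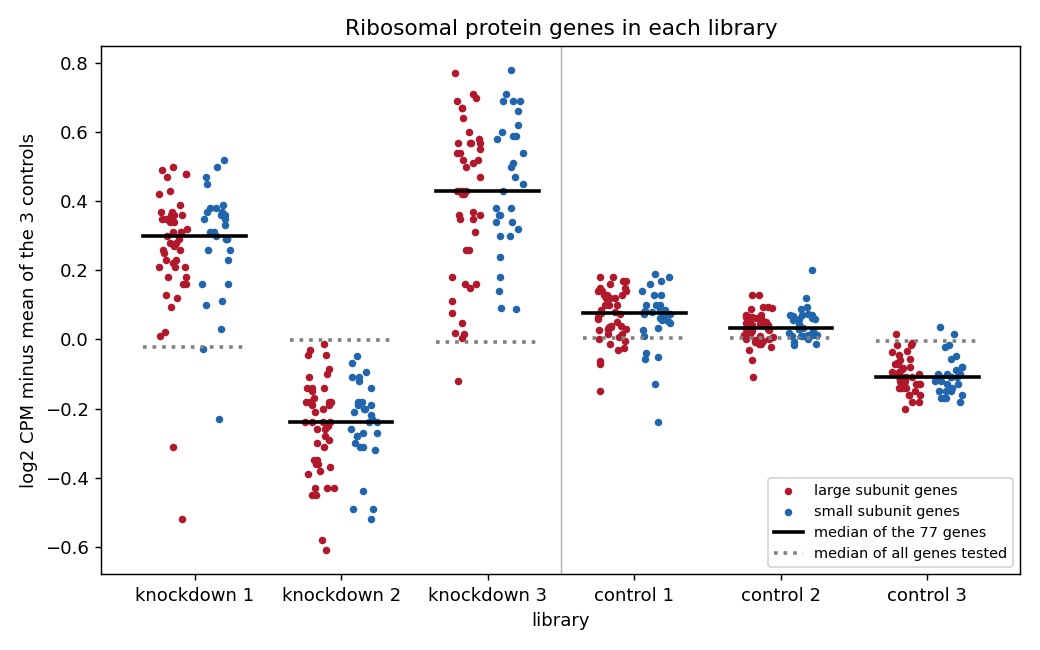
log2 CPM minus the mean of the 3 controls for each ribosomal protein gene in each library; red points are large subunit genes, blue points small subunit genes, black bars the median of the 77 genes and dotted bars the median of all genes tested. The medians sit at 0.30 and 0.43 in knockdown libraries 1 and 3 and at -0.24 in knockdown library 2, with the controls between -0.11 and 0.077.

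The same genes carried all 3 shifts. For 58 of 77 (75.3%), knockdown libraries 1 and 3 were above every control and knockdown library 2 below every control, a pattern noticed in these data and shown by 1055 of all 16394 genes tested (6.44%). It held for 35 of 46 large subunit genes and 23 of 31 small subunit genes. Across the 6 libraries the correlation of a gene's log2 CPM with the median of the other genes had a median r of 0.93, and 49 genes exceeded 0.9; the points share their libraries and their scaling, so this is a description. The 3 genes with r under 0.5 were RPL17 (-0.088), RPL26 (0.45) and RPS10 (0.46).

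The share of the library taken by these genes followed the same order. They held 6.10%, 4.69% and 6.31% of all counts in knockdown libraries 1 to 3, against 5.65%, 5.70% and 5.24% in control libraries 1 to 3. The means were 5.70% ± 0.884 in knockdown and 5.53% ± 0.252 in control (SD, n = 3 each), so the difference was smaller than the spread within either group, and the knockdown values enclosed the control values. As a share of the counts of protein-coding genes outside mitochondrial DNA, the values were 6.97%, 5.33% and 7.09% in knockdown libraries and 6.69%, 6.5% and 6.05% in control libraries, and the difference between the means was 0.0503 percentage points in place of 0.172.

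Knockdown library 2 was lowest both in ribosomal protein genes and in the CALR transcript left (6.39% of the control mean), but the other libraries were in opposite order: library 3, highest in ribosomal protein genes, retained 10.6% of CALR, and library 1 retained 47.5%. MYC was lower in all 3 knockdown libraries, at 173, 126 and 219 CPM against 264, 318 and 307 CPM in control libraries, with a log2 fold change of -0.78 ± 0.22 (SE) and an edgeR adjusted p of 0.20. Among the knockdown libraries, MYC was lowest where ribosomal protein genes were lowest and highest where they were highest. Relative to the controls, knockdown libraries 1 and 3 had MYC below every control but ribosomal protein medians above every control (log2 differences of 0.30 and 0.43). In knockdown library 2 both were below every control. With 3 libraries the order among the knockdown libraries was not tested.

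Leaving out knockdown library 2 made calls. Without it, edgeR gave 16 of 77 genes (20.8%) as higher in knockdown at an adjusted p under 0.05, against 7.76% of the 16783 genes then tested, and 0 as lower (7.75% of all genes). At an unadjusted p under 0.05, 52 of 77 were higher (67.5%; 17.9% of all genes) and 0 lower (17.7% of all genes). The 16 were split evenly, 8 large and 8 small subunit genes, with log2 fold changes from 0.48 to 0.65, and the median over the 77 was 0.35. Apart from the stalk genes RPLP0 and RPLP1, the large subunit genes were RPL29, RPL30, RPL32, RPL35, RPL36 and RPL41; the small subunit genes included RPSA, RPS2, RPS9, RPS20 and RPS29. Without knockdown library 1, or without any of the controls, 0 of 77 and 0 of all genes tested were called. Without knockdown library 3, 0 of 77 were called, against 138 of all genes tested.

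The stalk genes had log2 fold changes among the highest of the 77. The stalk is the flexible arm of the large subunit that recruits elongation factors; RPLP0 is its base and RPLP1 and RPLP2 are the acidic proteins bound to it. RPLP0 had 2317, 1565 and 2718 CPM in knockdown libraries 1 to 3, against 1706, 1748 and 1539.9 CPM in control libraries 1 to 3. RPLP1 had 684, 427 and 820.4 CPM in knockdown libraries, against 545, 492 and 419 CPM in control libraries. RPLP2 had 433, 332 and 581 CPM in knockdown libraries, against 382, 364 and 328 CPM in control libraries. In all 3 genes knockdown libraries 1 and 3 were above every control and knockdown library 2 lay among the controls, so the groups overlapped. The log2 fold changes were 0.40 ± 0.21 for RPLP0, 0.41 ± 0.24 for RPLP1 and 0.33 ± 0.21 for RPLP2 (SE), with edgeR adjusted p of 0.39, 0.43 and 0.47. Without knockdown library 2 they were 0.60, 0.64 and 0.51, with edgeR adjusted p of 0.026, 0.033 and 0.063. RPL12, a protein at the stalk's base, was one of the 3 genes with the highest level per length and had 1249.8, 895 and 1429 CPM in knockdown libraries, against 1172, 1089 and 952 CPM in control libraries. Its log2 fold change was 0.15 ± 0.20 (SE; edgeR adjusted p = 0.73), and it followed the pattern of most genes, with library 2 below every control.

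RPL5 and RPL11 enter the large subunit together with its smallest ribosomal RNA, and when assembly is disturbed they bind the ubiquitin ligase MDM2. RPL5 had 2169, 1628 and 1906 CPM in knockdown libraries, against 1642, 1756 and 1639 CPM in control libraries. RPL11 had 566, 401 and 538 CPM in knockdown libraries, against 511, 489 and 459 CPM in control libraries. In both genes libraries 1 and 3 lay above every control and library 2 below every control, by a narrow margin for RPL5. The log2 fold changes were 0.18 ± 0.17 for RPL5 and 0.046 ± 0.18 for RPL11 (SE), with edgeR adjusted p of 0.60 and 0.91.

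RPL22 and RPL41 are at opposite ends in how far they moved between libraries. RPL22, a protein that ribosomes can replace by its paralog RPL22L1, had 375, 341 and 364 CPM in knockdown libraries, against 355, 350.1 and 349 CPM in control libraries. The 6 values lay close together, and the log2 fold change was 0.034 ± 0.14 (SE; edgeR adjusted p = 0.92), with an SE at the low end of the 0.14 to 0.26 found over the 77. RPL41, which encodes a very short basic peptide, had 1275, 778 and 1411 CPM in knockdown libraries, against 1010.1, 989 and 863 CPM in control libraries. Libraries 1 and 3 were above and library 2 below every control, giving 0.28 ± 0.23 (SE; edgeR adjusted p = 0.56) with all libraries and 0.50 (adjusted p = 0.042) without library 2.

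The lowest log2 fold changes of the large subunit belonged to RPL26, RPL17, RPL23 and RPL36A. RPL26 lies by the tunnel exit and is modified by UFM1 on ribosomes at the endoplasmic reticulum. It had 64.5, 52.3 and 73.3 CPM in knockdown libraries, against 89, 74.2 and 77.5 CPM in control libraries. It was the only one of the 77 whose groups did not overlap, in the lower direction (11.2% of all genes tested), and 0 did so in the higher direction (11.3%). Its log2 fold change was -0.34 ± 0.18 (SE; edgeR adjusted p = 0.39), and it was below 0 in each of the alternative fits, from -0.51 to -0.21, with adjusted p from 0.20 to 0.78.

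An overlapping row also held more reads than RPL26 itself. A separate protein-coding row, RP11-849F2.7, covers 14.3% of RPL26's exon bases on the same strand and had 12847, 9544 and 15503 counts in knockdown libraries, against 18051, 14860 and 16295 counts in control libraries. The sum of both rows was 431, 289 and 489 CPM in knockdown libraries, against 567, 482 and 451 CPM in control libraries (403 ± 103 in knockdown and 499.9 ± 59.8 in control, SD, n = 3 each). Here the groups overlapped, since library 3 of the knockdown exceeded control libraries 2 and 3.

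RPL17, also at the tunnel exit, had 9.31, 11.7 and 13.6 CPM in knockdown libraries, against 12.9, 14.7 and 12.8 CPM in control libraries. The groups overlapped, with a log2 fold change of -0.22 ± 0.21 (SE; edgeR adjusted p = 0.62), and it was the gene whose knockdown library 1 lay farthest below the controls. Of its exon bases 32.7% are shared with other genes of the same strand, and the readthrough row RPL17-C18orf32 held only 1 to 3 counts per library. RPL23, another protein known to bind MDM2, had 636, 419 and 701 CPM in knockdown libraries, against 700.3, 618 and 569.9 CPM in control libraries. Library 2 stood below the controls, library 1 lay among them and library 3 just above them, and the log2 fold change was -0.10 ± 0.21 (SE; edgeR adjusted p = 0.83). RPL36A, at the ribosome's exit site for tRNA, had 328, 220.2 and 284 CPM in knockdown libraries, against 319, 272 and 262 CPM in control libraries. Its library 1 was just above, library 2 below and library 3 among the controls, a log2 fold change of -0.036 ± 0.19 (SE; edgeR adjusted p = 0.94) whose sign turned with GC correction.

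**Figure D3:**
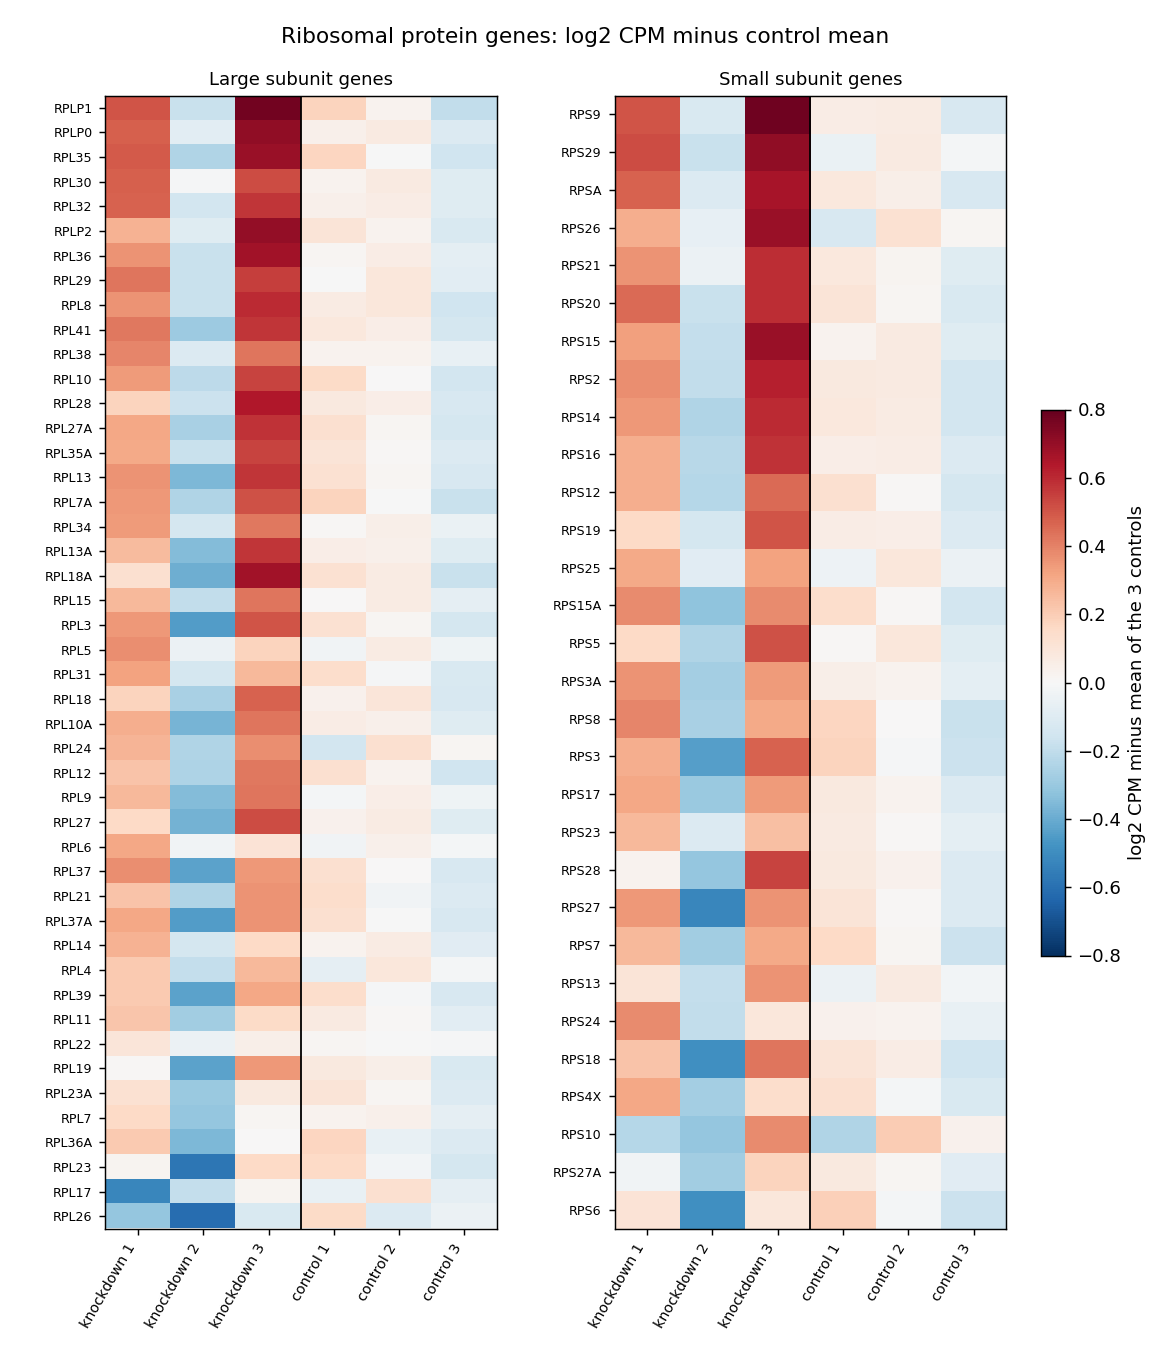
log2 CPM minus the mean of the 3 controls for ribosomal protein genes (rows, ordered by log2 fold change within each subunit) in every library (columns, knockdown left of the line, control right of it); red is higher and blue lower. A single gene is not shown. Knockdown columns 1 and 3 are red and column 2 blue for most rows of both subunits, while RPL17, RPL26, RPS10 and, slightly, RPS27A near the bottom lie below 0 in column 1.

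Among the small subunit genes, RPS9, RPS29 and RPSA had the highest log2 fold changes. RPS9, a protein that binds the small subunit's RNA early in assembly, had 496, 324 and 605 CPM in knockdown libraries, against 367, 369 and 321 CPM in control libraries. RPS29, a zinc-binding protein of the small subunit's head, had 571, 351 and 647 CPM in knockdown libraries, against 382, 417 and 392 CPM in control libraries. RPSA, first described as a laminin receptor precursor, had 1351, 900.2 and 1539 CPM in knockdown libraries, against 1030.2, 1004 and 890.1 CPM in control libraries. Libraries 1 and 3 were above all controls in the 3 genes, while library 2 lay within the controls for RPS9 and RPSA and below them for RPS29. The log2 fold changes were 0.43 ± 0.23 for RPS9, 0.40 ± 0.23 for RPS29 and 0.37 ± 0.21 for RPSA (SE), with edgeR adjusted p of 0.39, 0.42 and 0.42. Without knockdown library 2 they were 0.65, 0.62 and 0.57, with edgeR adjusted p of 0.026, 0.023 and 0.029.

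RPS6 and RPS27A lay just under 0. RPS6 is phosphorylated by the S6 kinases downstream of mTORC1 and had 906, 597 and 892 CPM in knockdown libraries, against 954, 828 and 745 CPM in control libraries. RPS27A, made as a fusion of ubiquitin and a ribosomal protein, had 699, 587 and 808 CPM in knockdown libraries, against 751, 719.5 and 671 CPM in control libraries. In both genes library 2 was below every control and library 1 lay among the controls; library 3 was above them for RPS27A and among them for RPS6. The log2 fold changes were -0.078 ± 0.20 for RPS6 and -0.032 ± 0.17 for RPS27A (SE), with edgeR adjusted p of 0.87 and 0.94, and both changed sign without knockdown library 2.

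RPS18 and RPS10 had the highest and the lowest mean FPKM of the small subunit genes. RPS18, a head protein at the contact with the large subunit, had 1362, 826 and 1567 CPM in knockdown libraries, against 1247, 1208 and 1038 CPM in control libraries. It followed the pattern of most genes, with a log2 fold change of 0.10 ± 0.24 (SE; edgeR adjusted p = 0.85). RPS10, which is ubiquitylated on collided ribosomes, had only 11.7, 11.1 and 17.9 CPM in knockdown libraries, against 11.6, 15.8 and 14.1 CPM in control libraries, with overlapping groups and a log2 fold change of -0.030 ± 0.25 (SE; edgeR adjusted p = 0.96).

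An overlapping row held more reads than RPS10 itself. The readthrough gene RPS10-NUDT3 shares 39.4% of RPS10's exon bases and had 23818, 18620 and 34765 counts in knockdown libraries, against 22614, 23705 and 24923 counts in control libraries. Summed, the 2 rows gave 692, 474 and 951 CPM in knockdown libraries, against 609.8, 667 and 585 CPM in control libraries (705 ± 239 in knockdown and 621 ± 41.7 in control, SD, n = 3 each). The sum has the order of the other genes, with libraries 1 and 3 above and library 2 below every control.

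Per length, the genes spanned a wide range. Their mean FPKM over the 6 libraries ran from 9.8 for RPL17 and 13.1 for RPS10 through a median of 385 to 1601 for RPL5, 1661 for RPL12 and 1715 for RPS18. The highest 3 had overlapping libraries: RPS18 had 1844, 1226 and 2007 FPKM in knockdown libraries, against 1808, 1817 and 1587 FPKM in control libraries, and RPL12 had 1748, 1372 and 1891 FPKM in knockdown libraries, against 1755, 1693 and 1505 FPKM in control libraries. RPL26 came next above RPL17 and RPS10, at 35.8, 31.9 and 38.6 FPKM in knockdown libraries, against 53.0, 45.8 and 48.6 FPKM in control libraries. RPL17, RPL26 and RPS10 share 32.7%, 14.3% and 39.4% of their exon bases with other genes of the same strand. RPS2 also shares 25.6% and had a mean FPKM of 1224, with 4 to 20 counts per library in its overlapping rows. The row overlapping RPS10 held 18620 to 34765 counts per library, the one overlapping RPL26 held 9544 to 18051, and RPL17-C18orf32 held 1 to 3. Why RPL17, RPL26 and RPS10 were low was not tested. The FPKM of a gene also depends on the length the authors used. The length implied by counts and FPKM ran from 428 bases for RPL39 to 8522 bases for RPL37. Its median was 1415 over the 77 and 3337 over all genes tested.

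**Figure D4:**
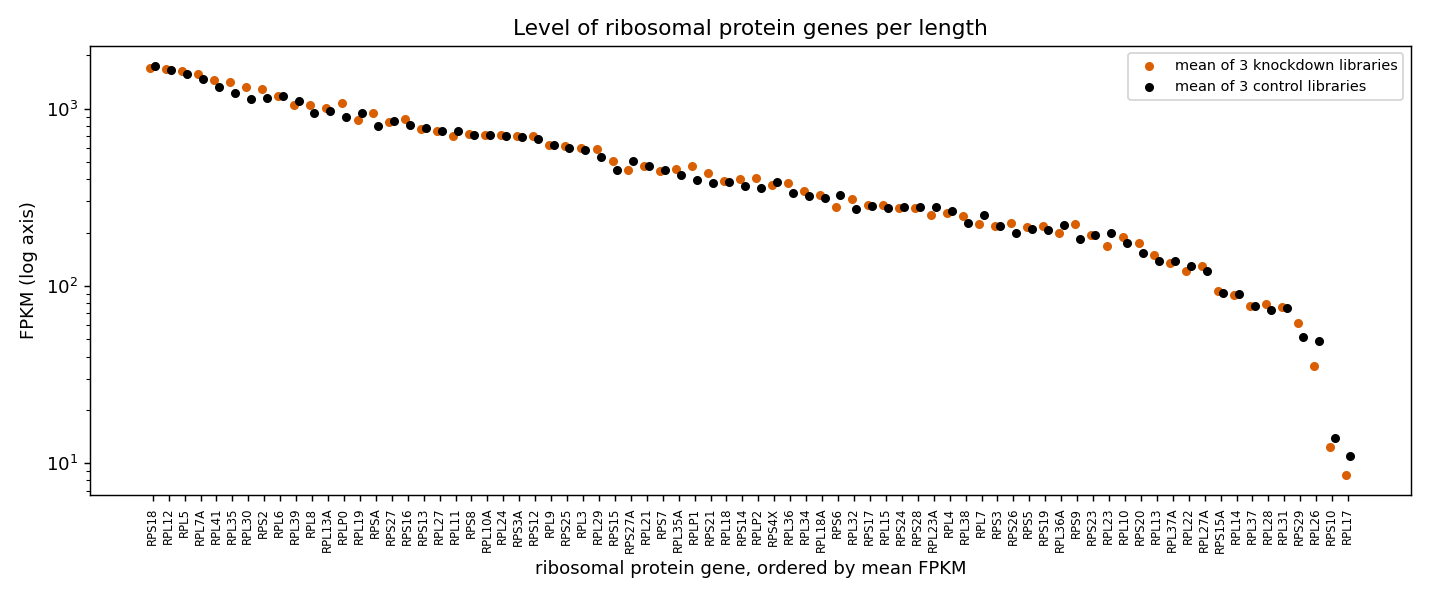
Mean FPKM of ribosomal protein genes in knockdown (orange) and control (black) libraries, on a log axis, genes ordered by their mean over all 6 libraries, a single gene not shown. Levels run from 1715 FPKM for RPS18 to 9.8 FPKM for RPL17, with the last 3 genes, RPL26, RPS10 and RPL17, set apart from the rest.

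The 46 genes with a C-led pyrimidine start had a median log2 fold change of 0.19, and the 16 without one had 0.15; 76.1% of the first and 75% of the second were above every control in knockdown libraries 1 and 3 and below every control in library 2. Among other protein-coding genes tested, the 687 with such a start had a median log2 fold change of 0.046 and 8.59% showed the pattern, and the 9314 without it had 0.01 and 6.64%. These are descriptions without a test, and genes with several annotated starts counted as having one where any start matched.

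Base composition moved with part of the result. Over the 77 genes the difference from the control mean correlated with transcript GC content at r = 0.14 in knockdown library 1, 0.11 in library 2 and 0.59 in library 3, and over all genes at 0.24, -0.17 and 0.45; the log2 fold change itself correlated at r = 0.43 (n = 77 genes, which share their libraries). GC content ran from 37.4% to 63.7% with a median of 47.9%, against 48% for all genes tested. After each library's GC trend was removed, the median shifts were 0.23, -0.20 and 0.33 in knockdown libraries 1 to 3. Then 62 genes were above, 66 below and 73 above all controls (37.8%, 34% and 37% of all genes tested). After removal of the trend with gene length the median shifts were 0.29, -0.20 and 0.30. On those sides were 66, 63 and 59 genes (39%, 33.7% and 39.2% of all genes). With library size alone the shifts were 0.14, -0.24 and 0.18 (all genes -0.18, 0.0013 and -0.26). There 51, 72 and 52 genes were on those sides (26.8%, 34.1% and 24.6% of all genes).

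Differences between the genes were sought by scaling each library to its median ribosomal protein gene, a setting chosen after the data were seen. RPL26 (log2 fold change -0.51 ± 0.17, SE; edgeR adjusted p = 0.38) and RPL23 (-0.30 ± 0.12, SE; edgeR adjusted p = 0.44), both lower, then had an unadjusted p under 0.05, as no other of the 77 did, and 0 of 77 had an adjusted p under 0.05. Under this scaling the median log2 fold change over all genes tested was -0.14. The share of all genes at an unadjusted p under 0.05 is not given for it. In the main fit 7.36% of all genes were lower by that p.

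Genes related to ribosomal proteins but outside the naming rule were listed apart. The list held 11 genes, among them FAU, RACK1 and paralogs of ribosomal proteins, and 9 were tested: 0 were higher and 1 was lower by the unadjusted p under 0.05 (8.17% and 7.36% of all genes), the median log2 fold change was 0.04 (-0.088 with library size alone), and 0 of 9 had all 3 knockdown libraries outside the controls in the way of the 58 (6.44% of all genes). RACK1, a scaffold on the small subunit listed under its older symbol GNB2L1, had 1199.6, 763 and 1135 CPM in knockdown libraries, against 1172, 1112 and 1022 CPM in control libraries (-0.094 ± 0.20, SE; edgeR adjusted p = 0.84). The gene at an unadjusted p under 0.05 was RPL7L1, a paralog of RPL7 that acts in ribosome assembly, with 414, 370 and 425 CPM in knockdown libraries, all below the 450.4, 560.2 and 546 CPM of the control libraries (-0.36 ± 0.16, SE; edgeR adjusted p = 0.32).

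The list of other TOP mRNAs, which holds elongation and initiation factors and other genes such as PABPC1, NPM1 and TPT1, gave 1 of 17 higher and 0 lower by the unadjusted p (8.17% and 7.36% of all genes). Their median log2 fold change was 0.026, and 3 of 17 were in the pattern (6.44% of all genes). EEF1D, the nucleotide exchange subunit of elongation factor 1, had 382, 336 and 406 CPM in knockdown libraries, all above the 270, 264 and 244 CPM of the control libraries (0.53 ± 0.15, SE; edgeR adjusted p = 0.20). EEF2, the translocation factor, had 1112, 808 and 1437 CPM in knockdown libraries, against 1124, 1114 and 998 CPM in control libraries (0.053 ± 0.22, SE; edgeR adjusted p = 0.92).

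Of the 19 genes of mTORC1 signalling and cap-binding control, 2 were higher and 3 were lower by the unadjusted p (8.17% and 7.36% of all genes) and 0 by the adjusted one. In the pattern were 3 of the 19 (6.44% of all genes). The median log2 fold change was 0.19, or 0.032 with library size alone and 0.034 on log2(FPKM + 1). MLST8, a subunit of the mTOR complexes, had 54.1, 48.0 and 78.9 CPM in knockdown libraries, all above the 44.3, 43.8 and 37.9 CPM of the control libraries (0.52 ± 0.21, SE; edgeR adjusted p = 0.29). PDCD4, an inhibitor of the initiation helicase EIF4A, had 33.0, 54.2 and 31.3 CPM in knockdown libraries, all below the 61.7, 63.9 and 68.0 CPM of the control libraries (-0.71 ± 0.23, SE; edgeR adjusted p = 0.23). EIF4EBP2, which blocks cap-binding EIF4E, had 87.8, 56.8 and 56.0 CPM in knockdown libraries, all below the 93.3, 98.5 and 99.2 CPM of the control libraries (-0.54 ± 0.20, SE; edgeR adjusted p = 0.27).

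Counts for the genes that make and assemble the ribosome are read against 8.17% of all genes higher and 7.36% lower by the unadjusted p, and 6.44% in the pattern. Among the 14 RNA polymerase I genes tested, which transcribe ribosomal RNA, 0 were higher and 2 were lower by the unadjusted p, the median log2 fold change was -0.072, and 0 were in the pattern. RRN3, the initiation factor of that polymerase, had 23.5, 34.2 and 29.9 CPM in knockdown libraries, all below the 46.3, 57.0 and 58.0 CPM of the control libraries (-0.88 ± 0.20, SE; edgeR adjusted p = 0.16). POLR1B, a catalytic subunit, had 36.5, 40.6 and 32.4 CPM in knockdown libraries, all below the 46.5, 48.4 and 50.2 CPM of the control libraries (-0.41 ± 0.16, SE; edgeR adjusted p = 0.29).

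Among the 54 assembly factors 0 were higher and 5 were lower by the unadjusted p, the median was -0.042, and 4 were in the pattern. DDX10, a nucleolar RNA helicase, had 40.4, 43.9 and 37.4 CPM in knockdown libraries, all below the 53.5, 58.9 and 65.0 CPM of the control libraries (-0.54 ± 0.16, SE; edgeR adjusted p = 0.22). RIOK2, a kinase of late small subunit maturation, and WDR43, a factor of early small subunit processing, were at -0.73 ± 0.23 and -0.57 ± 0.19 (SE), with edgeR adjusted p of 0.22 and 0.23 and every knockdown library below every control. The 12 chaperones and importers of ribosomal proteins gave 1 higher and 0 lower by the unadjusted p. Their median was 0.091, and 0 were in the pattern. The 1 higher was IPO9, an importin, with 195, 165 and 159 CPM in knockdown libraries, all above the 136, 122 and 132 CPM of the control libraries (0.41 ± 0.15, SE, edgeR adjusted p = 0.27).

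**Figure D5:**
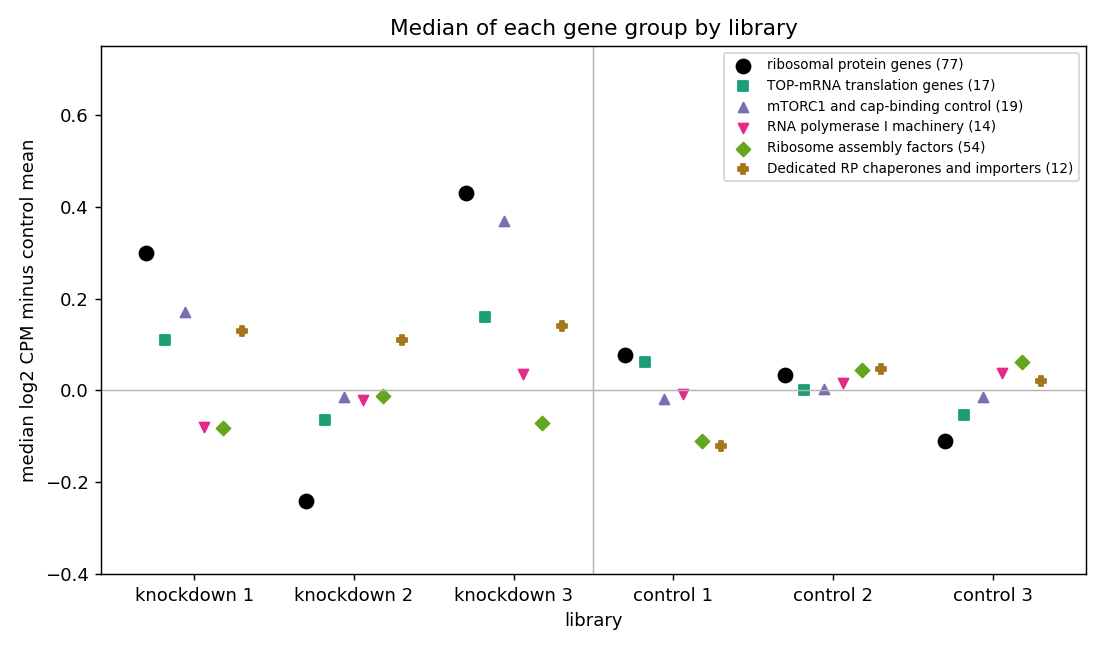
Median log2 CPM minus the mean of the 3 controls of the 77 ribosomal protein genes (black circles) and of 5 lists of related genes, by library; numbers in the legend are the genes tested. The ribosomal protein median moves between -0.24 and 0.43 among the knockdown libraries, the mTORC1 and cap-binding list between -0.014 and 0.37, and the assembly factors stay between -0.081 and -0.013.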

How the data were processed

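RNA sequencing of 3 CALR knockdown and 3 control libraries of MDA-MB-231 cells was used. The authors deposited a table of read counts per gene and a table of FPKM values, per the file headers; TopHat2, FastQC 0.9.5 and build GRCh38 are named in the submitters' processing notes. Which program counted, on which annotation and whether by strand is not given in the sources used here, so overlapping genes may hold each other's reads although the kit keeps strand, per the labels' protocols. In 3237 genes (over 2000 reads per library), counts and FPKM differed only by constants per gene and library, to within a relative SD of 0.186%. Replicate libraries differed by a chi-square per gene of 105 to 199 in knockdown and 11.8 to 48.1 in control, so no library appeared to be deposited more than once.

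Counts were tested with edgeR 4.0.16 (R 4.3.3): filterByExpr, TMM, quasi-likelihood F-test on all 6 libraries without covariates, Benjamini-Hochberg adjustment over the 16394 genes tested, threshold 0.05. The SE is |log2 fold change| over the root of F. Log2 CPM for per-library differences used a prior count of 2. Exact permutation tests of 3 against 3 libraries cannot give a p below 0.1 and were not used. The fits were tested on simulated counts with the same dispersion for all genes, which does not measure their power in these data. Of 31582 identifiers 30871, and all 78 of the ribosomal protein rows, matched GENCODE 29 without the version, which gave overlaps and GC content; promoter windows came from RefSeq.

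The genes and lists were chosen with earlier results of these data known. Named genes were 10 preset genes, the 5 most positive and 5 most negative log2 fold changes, any with an unadjusted p under 0.05 and groups that do not overlap, the 3 highest and 3 lowest by FPKM, and up to 3 per list by the same p rule; the 16 genes called without knockdown library 2, RACK1, EEF2 and the readthrough rows were named after their values were seen. The single values of some genes are not reported here.

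Alternatives were DESeq2 size factors, library size alone, TMM without these genes, no low-count filter, only genes reaching a CPM of 1 in each library, limma-voom 3.58.1, DESeq2 1.42.0 (10 genes without an adjusted p), log2(FPKM + 1) and log2(FPKM + 0.1) in limma (an FPKM of 1 or more in 3 libraries, or unfiltered for the first), the replicate block, GC correction (lowess span 0.3), both together, and each library left out. Length correction and scaling to the ribosomal protein genes were added after the data were seen.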

Additional observations from a re-analysis of the deposited data

How the results depend on the processing

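The count of ribosomal protein genes higher in knockdown at an edgeR adjusted p under 0.05 was 0 under every alternative except one, and ran from 0 to 16 when libraries were left out in turn; the 16 came without knockdown library 2. Calls over all genes tested were 2604 without knockdown library 2, 138 without knockdown library 3, and 0 with any other library left out. At an unadjusted p under 0.05 the count higher was 4 without the low-count filter (RPLP0, RPLP1, RPS9 and RPS29) and 0 to 52 with a library left out. Without that filter 988 of all genes tested had an edgeR adjusted p under 0.05, against 0 in the main fit. The count lower was 1 (RPL26) with library size alone, with length correction and in the 3 FPKM fits, 2 when scaled to the ribosomal protein genes, and 0 to 1 with a library left out. Apart from the fit without knockdown library 2, the shares of all genes at an unadjusted p under 0.05 in these fits are not given here. In the main fit 8.17% of all genes were higher and 7.36% lower. The median log2 fold change of the 77 ran from 0.066 to 0.35 with a library left out, and the difference in library share from -0.134 to 0.679 percentage points.

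Signs of small differences turned. RPL22, RPL11 and RPS18 were at -0.10, -0.10 and -0.053 with library size alone, -0.091, -0.094 and -0.067 on log2(FPKM + 1) with or without the filter, -0.092, -0.094 and -0.067 on log2(FPKM + 0.1), and -0.11, -0.13 and -0.10 when scaled to the ribosomal protein genes, where RPL12 was at -0.035. RPL22 was at -0.0039 among genes with a CPM of 1 or more in each library. GC correction put RPS6, RPS27A and RPL36A at 0.065, 0.07 and 0.13. With a library left out RPL11 ran from -0.047 to 0.19, RPS10 from -0.27 to 0.10, RPS6 from -0.18 to 0.10, RPS27A from -0.13 to 0.083, RPL36A from -0.17 to 0.11, RPL23 from -0.24 to 0.091 and RPS18 from -0.071 to 0.33. The causes were not tested.

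List medians for TOP-mRNA genes, RNA polymerase I genes, assembly factors and chaperones were -0.12, -0.21, -0.17 and -0.048 with library size alone, -0.13, -0.19, -0.17 and -0.047 on log2(FPKM + 1) with or without the filter, -0.13, -0.20, -0.18 and -0.048 on log2(FPKM + 0.1), and -0.15, -0.22, -0.17 and -0.06 when scaled to the ribosomal protein genes, where mTORC1 genes were at -0.0096. The genes outside the naming rule were at -0.088 with library size alone, -0.084 on log2(FPKM + 1), -0.01 with GC correction and -0.11 when scaled to the ribosomal protein genes. With a library left out mTORC1 genes ran from 0.084 (without knockdown library 3) to 0.25, genes outside the rule from -0.12 (without knockdown library 3) to 0.087, TOP-mRNA genes from -0.026 to 0.16 and RNA polymerase I genes from -0.076 to -0.0071.

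Same-numbered knockdown and control libraries deviated together with correlations of 0.20, -0.12 and -0.22, and differently numbered ones with -0.2 to 0.36. With 3 libraries per group these values cannot decide whether the numbers pair the samples, and the labels do not say. With the replicate number as a block 0 genes were called as before, and the median of the 77 was 0.14; with block and GC correction together RPS6, RPS27A, RPL36A and RPS18 were at 0.024, 0.045, 0.094 and -0.015.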

Other observations

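Pseudogenes of ribosomal proteins had rows of their own. There were 288 such rows, 38 of them tested, and together they held 0.183% to 0.228% of the counts of the 77 genes in knockdown libraries and 0.226% to 0.25% in control libraries, too few to move the summed share. RPL13AP20, a copy of RPL13A, had 39, 66 and 118 counts in knockdown libraries, all below the 203, 221 and 205 counts of the control libraries (log2 fold change -1.44 ± 0.38, SE; edgeR adjusted p = 0.20). RPS2P5, a copy of RPS2, had 11, 6 and 197 counts in knockdown libraries, against 677, 202 and 225 counts in control libraries, so control library 1 stood apart (log2 fold change -2.31 ± 1.08, SE; edgeR adjusted p = 0.34). Reads of such copies and of their parent genes are hard to tell apart, and both rows were picked after their values were seen.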
